A study of Mus musculus with 12 samples.

Results

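Iron enters, is stored in and leaves a macrophage through a small set of proteins, and the RNA of 9 genes that encode them is described here in microglial cells with lowered or raised Spi1. The genes are Fth1 and Ftl1 for storage, Ncoa4 for ferritin turnover, Tfrc and Slc11a2 for uptake, Slc11a1 for transport out of phagosomes, Slc40a1 for export, and Aco1 and Ireb2 for iron sensing. They were found by their symbols in both expression tables, each with 24062 entries, and all 9 passed the filter of a mean of at least 1 FPKM (reads for each kilobase of gene and megaread of the library) in both experiments. The list was drawn up from known function, with earlier results of these data in view.

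The cells were BV2, a line of mouse microglia, and Spi1 encodes PU.1, an ETS transcription factor of myeloid cells. In the first experiment a short hairpin RNA lowered mouse Spi1 transiently (3 knockdown libraries) beside a scrambled control (3 libraries). In the second a mouse Spi1 cDNA was overexpressed transiently (3 libraries) beside an empty control (3 libraries). All cells were FACS-sorted and got no other treatment per the labels, so the design compares lowered and raised Spi1 each with its own control in 1 cell line. The sources used here do not give the time after delivery, the sort gate or any iron added to the medium, nor say if the 3 libraries of a group were separate cultures. The p-values therefore set each group difference only against the spread of these libraries, and that spread may be technical.

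Ferritin is a hollow shell of heavy (Fth1) and light (Ftl1) subunits: the heavy subunit oxidises ferrous iron, and the light subunit helps the mineral core form. Ncoa4 carries ferritin to lysosomes, where its iron is released. The transferrin receptor Tfrc brings in iron bound to transferrin, Slc11a2 (DMT1) moves ferrous iron across the endosomal membrane, Slc11a1 (NRAMP1) moves metal ions out of phagosomes, and Slc40a1 (ferroportin) is the exporter. Aco1 and Ireb2 encode the iron regulatory proteins IRP1 and IRP2, which bind stem-loops called iron-responsive elements (IREs) when iron is scarce. A bound IRE in a 5′ UTR blocks translation without necessarily changing the RNA level, and bound IREs in the 3′ UTR of Tfrc protect its RNA from decay.

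These stem-loops are printed because they link the members to one another and because their place in the transcript decides whether RNA level or translation is the known point of control. Sense strands of GENCODE M21 transcripts (mm10) were searched for an unpaired C, then 5 bases, then the loop CAGTGN, then bases that pair with those 5. A match needed at least 4 of the 5 pairs, and the N could be any base but G. All coding transcripts of the members were searched, and such a match was present in 8 places in 5 of the 9 members. Over 1 transcript for each of 21866 coding genes, 0.421% held a match in the 5′ UTR and 2.53% in the 3′ UTR. Those shares come from a narrower search than that of the members. Capitals mark the unpaired C and the loop, and each line shows 30 bases, 5′ to 3′ on the gene's strand:
Fth1, 5′ UTR, chr19:9982732-9982761, plus strand: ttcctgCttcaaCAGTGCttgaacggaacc
Ftl1, 5′ UTR, chr7:45459778-45459807, minus strand: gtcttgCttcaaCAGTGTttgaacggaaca
Slc40a1, 5′ UTR, chr1:45925464-45925493, minus strand: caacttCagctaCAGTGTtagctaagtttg
Slc11a2, 3′ UTR, chr15:100395152-100395181, minus strand: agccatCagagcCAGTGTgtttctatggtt
Tfrc, 3′ UTR, chr16:32631219-32631248, plus strand: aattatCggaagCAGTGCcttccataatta
Tfrc, 3′ UTR, chr16:32631598-32631627, plus strand: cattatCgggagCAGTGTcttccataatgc
Tfrc, 3′ UTR, chr16:32631663-32631692, plus strand: ctatatCggagaCAGTGAtctccatatgtt
Tfrc, 3′ UTR, chr16:32631710-32631739, plus strand: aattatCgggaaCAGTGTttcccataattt
The Slc11a2 match had 4 of the 5 pairs and lay in 1 annotated transcript, while the other 7 matches had all 5 pairs. A match describes the letters and is not evidence that a protein was bound in these cells. The tables give 1 value for a gene, so Slc11a2 transcripts with and without the element were not told apart.

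Libraries held 22.3 to 33.1 megareads on genes, and Spi1 had a log2 fold change of -1.75 in knockdown (limma, Benjamini-Hochberg adjusted p = 0.000697) and 0.81 in overexpression (adjusted p = 1, and 0.0357 with the library number as a block). Knockdown called 2945 of 11214 tested genes at an adjusted p of 0.05, or 26.3%. Overexpression called 0 of 11217 genes, or 0%, with 72 higher and 50 lower at an unadjusted p of 0.05, and 13 (0.116%) with the block. Of 9 microglia and macrophage markers 8 had a mean of at least 1 FPKM, all but Cx3cr1, with a summed level of 1846 to 2046 FPKM in knockdown and 2157 to 2289 FPKM in its controls. Marker lists of 8 other cell types had no gene at that level except Kdr of the endothelial list, whose sum was 57.3 to 61.7 FPKM in scrambled controls and 74.3 to 78.9 FPKM in knockdown. All 20 genes of a G2/M list were called higher in knockdown, with a median log2 fold change of 0.96 (overexpression: 0 called, median -0.14). By library, the mean log2 level of that list was 4.99 to 5.12 in knockdown, inside the 4.77 to 5.21 of the empty controls. Every scrambled control lay below all libraries of the other groups, so the scrambled controls were the group that stood apart in this list. The experiments were separate, and the part of cell division in the results below was not tested. In bulk RNA, fewer cells with a transcript and less of it in each cell cannot be told apart.

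Knockdown of Spi1 was accompanied by lower ferritin light chain, lower DMT1 and ferroportin, slightly lower IRP2 and higher Ncoa4 RNA. Of the 9 genes, 4 were called lower (Ftl1, Slc11a2, Slc40a1 and Ireb2) and 1 was called higher (Ncoa4), so 5 of 9 beside 26.3% of all genes. Among all genes 8.86% were called lower and 17.4% higher, or 993 and 1952 genes, and that balance turned with median-of-ratios scaling, to 1454 lower and 1251 higher. The same scaling called 4 members lower and 0 higher. The median log2 fold change of the members was -0.23 and that of all tested genes was 0.07. With the library number as a block 8 of the 9 were called, 6 lower and 2 higher, beside 45.3% of all genes (14.7% lower and 30.6% higher), and Aco1 was the one not called. Block and median-of-ratios scaling together called 6 members lower and 2 higher, and 2445 and 2259 of all genes. The knockdown libraries lay wholly below their controls in 4 members and wholly above in 2, beside 45.4% of all genes without overlap (15.1% below and 30.3% above). In all 3 same-numbered pairs 6 members were lower and 3 were higher, beside 24.6% and 47.3% of all genes. The members were few and selected by function, so these counts describe them and no more.

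**Figure D1:**
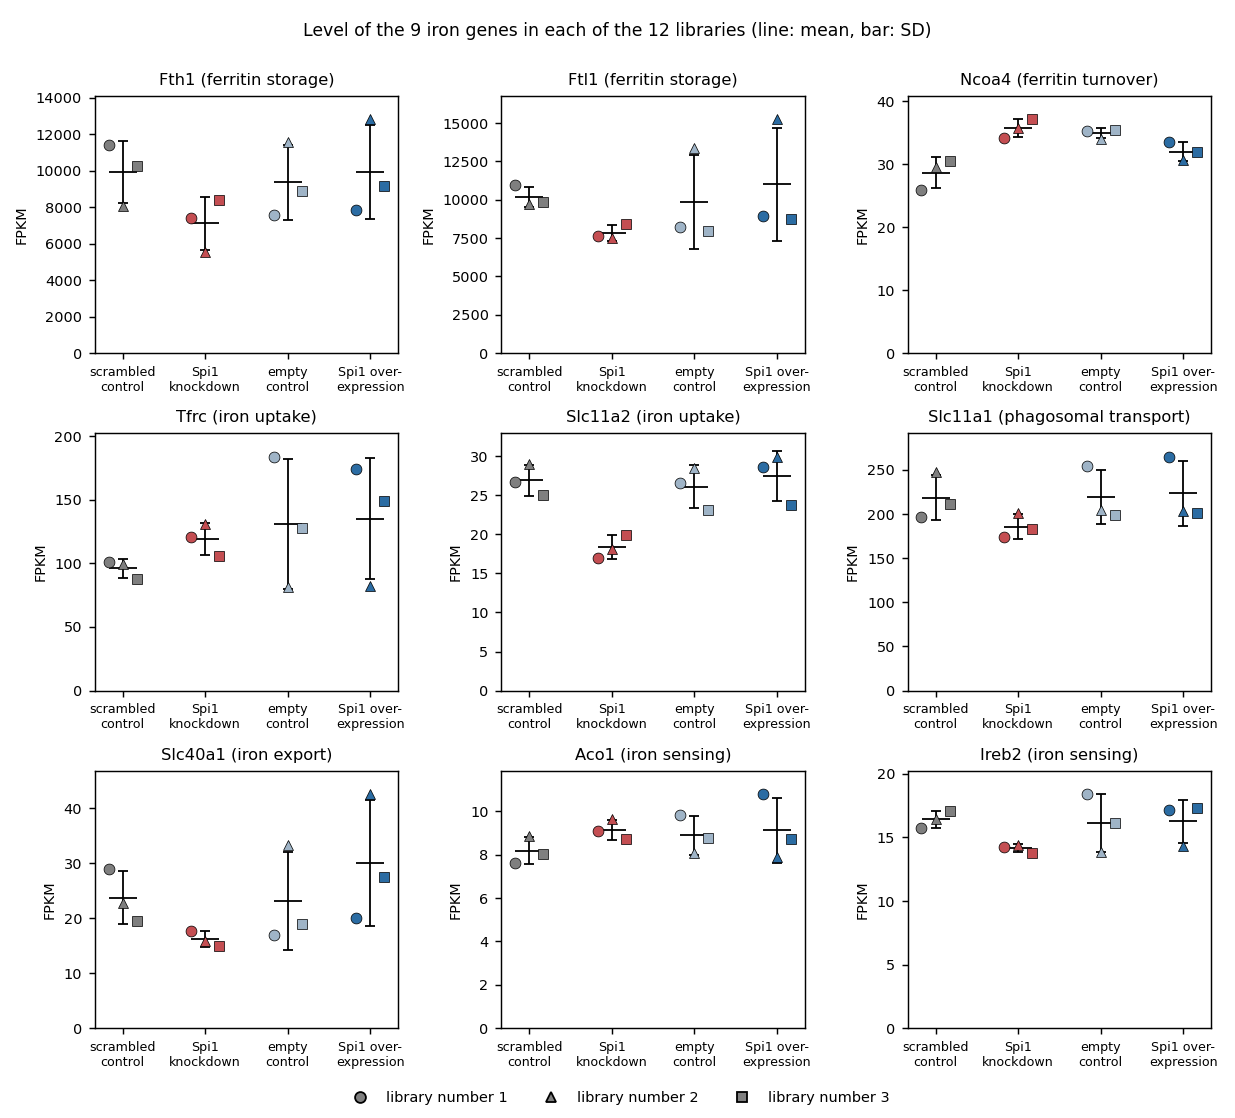
Level in FPKM (vertical axis, from 0) of each of the 9 iron genes in the 4 groups on the horizontal axis; each point is a library, its shape gives the library number, and the line and bar are the mean and SD of 3 libraries. In Slc11a2 the 3 knockdown libraries (16.9 to 19.9 FPKM) lie below all 9 other libraries, and in the overexpression experiment both libraries numbered 2 are the highest in Fth1, Ftl1 and Slc40a1 and the lowest in Tfrc.

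Both ferritin subunits were among the 3 highest genes by FPKM in every library. Ftl1, the light chain (ENSMUSG00000050708, chr7:45457944-45459884, minus strand), stood at 10949, 9744 and 9829 FPKM in the scrambled controls and at 7615, 7473 and 8427 FPKM in knockdown. Every knockdown library was below every control. The mean fell by 22.96% from 10174 ± 672 to 7838 ± 515 FPKM (SD, n = 3 each), and the fitted change on the log2(FPKM + 1) scale was -0.38 (standard error 0.0779, limma, adjusted p = 0.0143). The call held without any 1 of the 6 libraries, at adjusted p from 0.0279 to 0.0497, and was lost without both libraries numbered 2 (adjusted p = 0.0825).

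Fth1, the heavy chain (ENSMUSG00000024661, chr19:9980598-9985098, plus strand), stood at 11427, 8066 and 10278 FPKM in the scrambled controls and at 7420, 5528 and 8381 FPKM in knockdown. The highest knockdown library was above the lowest control, so the groups overlapped, although knockdown was lower in each same-numbered pair, by a log2 difference of -0.62, -0.54 and -0.29. Levels averaged 9924 ± 1708 FPKM in controls and 7110 ± 1451 FPKM in knockdown (SD, n = 3 each), and the log2 fold change of -0.49 (standard error 0.179) did not pass the test (limma, adjusted p = 0.0842). It passed with the library number as a block (adjusted p = 0.00854) and without scrambled control 2 (-0.63, adjusted p = 0.0477).

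Reads on the 2 ferritin genes made up 2.49% ± 0.313 of all reads on genes in scrambled controls and 1.83% ± 0.263 in knockdown (SD, n = 3 each). The ranges of 2.16 to 2.79% and 1.56 to 2.08% did not overlap. The ratio of Fth1 to Ftl1 by FPKM was 0.972 ± 0.125 in scrambled controls and 0.903 ± 0.142 in knockdown. That difference was smaller than the SD of either group, although the ratio was lower in each same-numbered pair, 1.04 against 0.974, 0.828 against 0.740 and 1.05 against 0.995. It was not tested. Both genes have close copies in the genome: 5 ferritin pseudogene names are annotated and 0 of them are entries of the tables. How reads that fit several places were counted is not given in the sources used here, so the absolute ferritin levels are uncertain to that extent. Exons of Ftl1 are also overlapped by Gm22133 and Gm10252, and the library kit does not mark strand.

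Ncoa4, the receptor that delivers ferritin to lysosomes (ENSMUSG00000056234, chr14:32159865-32179855, plus strand), moved opposite to Ftl1. It stood at 25.8, 29.5 and 30.5 FPKM in the scrambled controls and at 34.2, 35.8 and 37.2 FPKM in knockdown, with no overlap. The mean rose by 24.8% from 28.6 ± 2.46 to 35.7 ± 1.49 FPKM (SD, n = 3 each), and the fitted log2 change was 0.31 (standard error 0.0791, limma, adjusted p = 0.0272). The call was lost with median-of-ratios scaling (0.23, adjusted p = 0.0504) and on leaving out any 1 library but scrambled control 3, at adjusted p of 0.0547 and 0.0508 without scrambled controls 1 and 2, and 0.0504, 0.0743 and 0.0935 without knockdown libraries 1, 2 and 3.

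The scrambled controls of Ncoa4 were low beside the controls of the other experiment. The empty controls stood at 35.3, 34.0 and 35.5 FPKM, all above the scrambled controls and overlapping with the knockdown libraries. On the log2 scale the scrambled controls were 0.28 below the empty controls (-0.28), and knockdown was 0.03 above them. Both tables scale each library by its own reads, but the experiments were separate and nothing in the design makes their controls interchangeable.

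Tfrc and Slc11a2 act in sequence on transferrin-bound iron, and without the block Slc11a2 was called and Tfrc was not. Slc11a2 (ENSMUSG00000023030, chr15:100387898-100425072, minus strand) stood at 26.6, 29.0 and 25.1 FPKM in the scrambled controls and at 16.9, 18.1 and 19.9 FPKM in knockdown. The gap between the groups was wider than the range of either, and the empty controls, at 26.6, 28.5 and 23.2 FPKM, also lay above every knockdown library. The mean fell by 31.9% from 26.9 ± 1.98 to 18.3 ± 1.52 FPKM (SD, n = 3 each), and the fitted log2 change was -0.53 (standard error 0.0843, limma, adjusted p = 0.00636). Among the 5 called members it had the lowest adjusted p, and the call held without any 1 of the 6 libraries (adjusted p from 0.011 to 0.0245), but not without both libraries numbered 2 (adjusted p = 0.0646). Exons of Slc11a2 share bases with Gm5475 on the opposite strand.

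Tfrc (ENSMUSG00000022797, chr16:32608920-32632794, plus strand) stood at 101, 99.3 and 87.5 FPKM in the scrambled controls and at 120, 131 and 106 FPKM in knockdown. All 3 knockdown libraries were above the controls, and levels averaged 96.0 ± 7.35 FPKM in controls and 119 ± 12.5 FPKM in knockdown (SD, n = 3 each). The log2 fold change of 0.31 (standard error 0.0966) missed the threshold at an adjusted p of 0.0537, and passed with the block (adjusted p = 0.00935) and without knockdown library 3 (0.39, adjusted p = 0.0456). The spread of Tfrc in the empty controls was wider, 81.8 to 184 FPKM, and took in every knockdown and scrambled library.

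Slc11a1, the phagosomal transporter known for its part in resistance to intracellular microbes (ENSMUSG00000026177, chr1:74375195-74386062, plus strand), stood at 197, 247 and 212 FPKM in the scrambled controls. In knockdown it stood at 174, 201 and 183 FPKM, and the groups overlapped. Levels averaged 219 ± 25.7 FPKM in controls and 186 ± 13.9 FPKM in knockdown (SD, n = 3 each). The log2 fold change of -0.23 (standard error 0.0997) did not pass the test (limma, adjusted p = 0.129), and passed with the block (adjusted p = 0.0157). The same-numbered pairs differed by -0.18, -0.30 and -0.21. By FPKM it was the most abundant of the 9 genes after the ferritin subunits in all 12 libraries.

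The promoter of Slc11a1 is shown because Spi1 was the gene altered and it was the single member whose promoter held the purine-rich core GAGGAA that ETS factors such as PU.1 are known to bind. On both strands of the 250 bases before each RefSeq gene start (GRCm38.p6), GAGGAA was present in 23.3% of 32851 promoters and in 1 of the 7 members with an entry, which are all but Slc40a1 and Slc11a2. In the sequence, 5′ to 3′ on the gene's strand, the capitals mark the match, whose first base is 152 bases before the start (-152):
Slc11a1, chr1:74374953-74375202, plus strand: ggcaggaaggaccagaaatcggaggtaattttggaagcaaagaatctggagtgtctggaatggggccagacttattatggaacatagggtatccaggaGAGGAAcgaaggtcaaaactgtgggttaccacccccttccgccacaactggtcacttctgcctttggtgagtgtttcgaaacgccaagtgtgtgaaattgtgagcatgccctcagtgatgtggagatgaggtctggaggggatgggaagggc
A match of these letters is a description, not a binding site, and no match in another member says only that the letters are not in that window.

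Slc40a1, the only known cellular iron exporter (ENSMUSG00000025993, chr1:45908068-45926523, minus strand), stood at 29.0, 22.7 and 19.5 FPKM in the scrambled controls and at 17.8, 15.9 and 14.9 FPKM in knockdown, with no overlap. The mean fell by 31.9% from 23.8 ± 4.82 to 16.2 ± 1.46 FPKM (SD, n = 3 each), and the fitted log2 change was -0.51 (standard error 0.139, limma, adjusted p = 0.0336). The call held without scrambled control 3 (-0.64, adjusted p = 0.0195) and was lost without any other single library, at adjusted p of 0.0531 and 0.0637 without scrambled controls 1 and 2, and 0.0504, 0.0892 and 0.108 without knockdown libraries 1, 2 and 3. It was also lost with no filter on low genes (adjusted p = 0.0823).

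The RNAs of the 2 sensors differed little between groups. Ireb2, which encodes IRP2 (ENSMUSG00000032293, chr9:54863789-54912530, plus strand), stood at 15.7, 16.5 and 17.1 FPKM in the scrambled controls and at 14.3, 14.4 and 13.8 FPKM in knockdown. The groups did not overlap, and the mean fell by 13.9% from 16.4 ± 0.680 to 14.2 ± 0.307 FPKM (SD, n = 3 each), and the fitted log2 change was -0.20 (standard error 0.0604, limma, adjusted p = 0.0463). The call was lost on leaving out any 1 of the 6 libraries, at adjusted p of 0.0511, 0.107 and 0.129 without scrambled controls 1, 2 and 3, and 0.101, 0.0968 and 0.141 without knockdown libraries 1, 2 and 3.

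Aco1, the cytosolic aconitase that becomes IRP1 when it loses its iron-sulphur cluster (ENSMUSG00000028405, chr4:40143081-40198338, plus strand), stood at 7.64, 8.87 and 8.03 FPKM in the scrambled controls. In knockdown it stood at 9.10, 9.63 and 8.73 FPKM, overlapping with the controls. The log2 fold change of 0.15 (standard error 0.0734) passed neither without the block (limma, adjusted p = 0.177) nor with it (adjusted p = 0.0574). It had the fewest reads of the members, 833 to 1390 in a library, while Fth1 had 222777 to 536227.

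**Figure D2:**
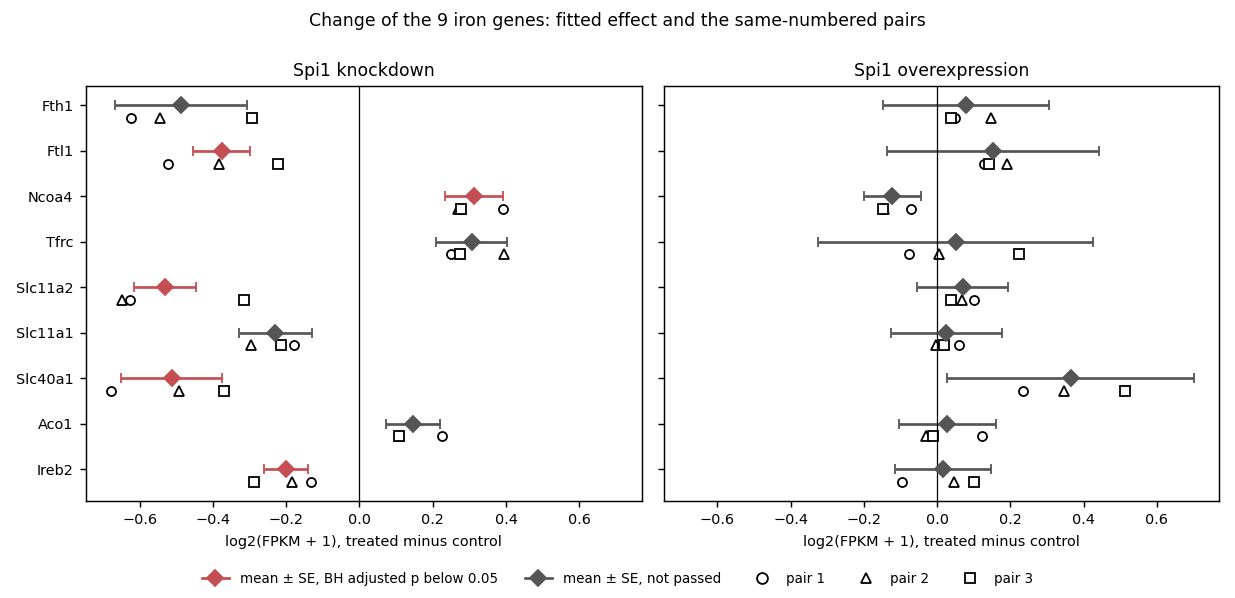
Change of each gene on the log2(FPKM + 1) scale (horizontal axis, treated minus control) in knockdown (left) and overexpression (right); diamonds are fitted effects with their standard errors, red where the adjusted p is below 0.05, and open symbols are the 3 same-numbered pairs. In knockdown 5 diamonds are red and all pairs of a gene lie on 1 side of 0, while in overexpression 0 of the 9 are red and Slc40a1 has the largest effect, 0.36.

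In overexpression 0 of the 9 genes were called, with or without the block, beside 0% and 0.116% of all genes (with the block, 0.0802% higher and 0.0357% lower). The adjusted p was 1 for each member without the block and at least 0.148 with it. The median log2 fold change of the members was 0.05, beside -0.01 for all genes. Treated and control libraries overlapped in 8 of the 9, and 4.06% of all genes showed no overlap (1.66% above and 2.4% below their controls). All 3 same-numbered pairs were higher in 4 members and lower in 1, beside 14% and 23.8% of all genes.

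The gene without overlap was Ncoa4. The empty controls had 35.3, 34.0 and 35.5 FPKM, the libraries with the cDNA 33.5, 30.6 and 31.9 FPKM, and its log2 fold change of -0.12 (standard error 0.0786) did not pass the test (limma, adjusted p = 1; 0.309 with the block). Ferroportin had the largest fitted effect: Slc40a1 had 16.9, 33.3 and 19.0 FPKM in empty controls and 20.1, 42.6 and 27.5 FPKM with the cDNA. Each same-numbered pair was higher, by 0.24, 0.35 and 0.51, but the spread inside each group was wider than that, and the log2 fold change of 0.36 (standard error 0.337) did not pass (limma, adjusted p = 1; 0.148 with the block).

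For ferritin in the same experiment, Fth1 had 7588, 11581 and 8892 FPKM in empty controls and 7854, 12828 and 9130 FPKM with the cDNA. Ftl1 had 8206, 13377 and 7950 FPKM in empty controls and 8968, 15267 and 8770 FPKM with the cDNA. Both were higher in each same-numbered pair, by 0.04 to 0.15 for Fth1 and 0.13 to 0.19 for Ftl1, and the log2 fold changes of 0.08 (standard error 0.227) and 0.15 (standard error 0.289) did not pass. Slc11a2 was at 26.1 ± 2.71 FPKM in the empty controls and 27.5 ± 3.25 FPKM in overexpression, and Slc11a1 at 219 ± 30.6 and 223 ± 36.3 FPKM (SD, n = 3 each). Tfrc was at 131 ± 51.2 and 135 ± 47.7 FPKM, Aco1 at 8.90 ± 0.885 and 9.13 ± 1.501 FPKM, and Ireb2 at 16.1 ± 2.27 and 16.3 ± 1.69 FPKM (SD, n = 3 each). The fitted log2 change of Tfrc was 0.05, with a standard error of 0.376 without the block and 0.0668 with it.

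The libraries numbered 2 stood apart in that experiment, in control and treated cells alike. Relative to the mean of the empty controls, empty control 2 was at 0.33 for Fth1, 0.49 for Ftl1, 0.57 for Slc40a1 and -0.60 for Tfrc on the log2 scale. Overexpression library 2 was at 0.48, 0.68, 0.92 and -0.59 for the same genes. Storage and export RNA were thus at their highest, and the RNA of the transferrin receptor at its lowest, in the same libraries with and without the Spi1 cDNA. The labels give no reason for the number, and what these libraries share was not tested.

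Across all 12 libraries Ftl1 and Slc40a1 followed each other with a Pearson correlation of 0.90, Fth1 and Ftl1 with 0.86, and Tfrc and Aco1 with 0.84. Fth1 and Aco1 were opposed (-0.79). With each group centred on its own mean, Ftl1 and Tfrc were opposed more closely, at -0.89 against -0.69 before centring. These values over 12 libraries are descriptions: the libraries fall into 4 groups, and the libraries numbered 2 of the overexpression experiment stand apart.

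**Figure D3:**
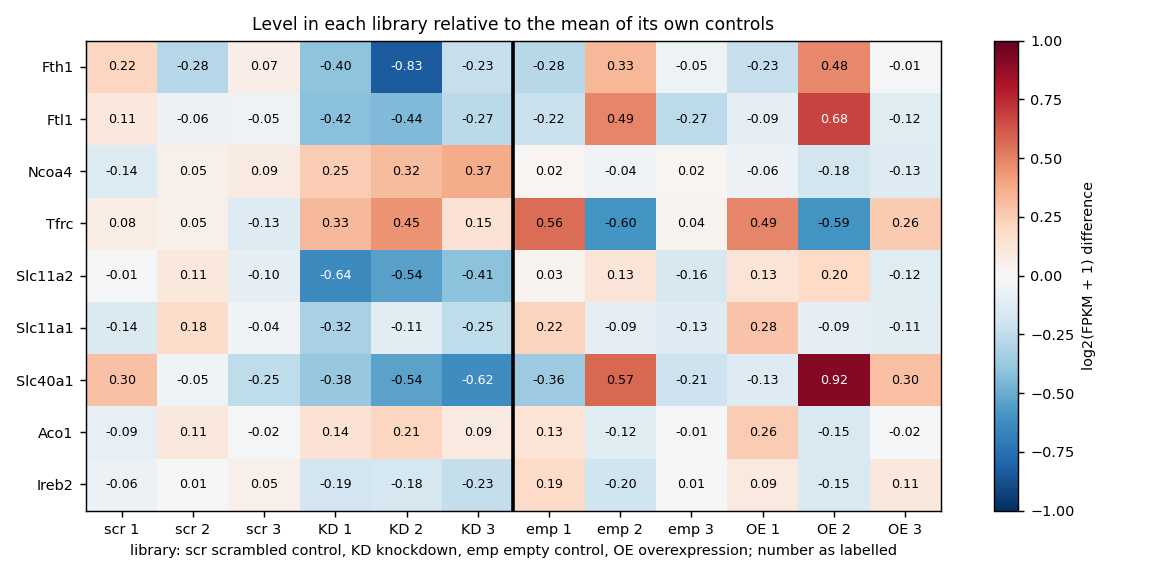
Each cell is the log2(FPKM + 1) level of a gene (rows) in a library (columns) minus the mean of the 3 controls of the same experiment; red is higher, blue is lower, and the line separates the experiments. The knockdown columns are blue for ferritin, Slc11a2 and Slc40a1, and the columns numbered 2 of the overexpression experiment share red in Fth1, Ftl1 and Slc40a1 and blue in Tfrc (-0.60 and -0.59).

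By group mean, Fth1, Ftl1, Slc11a2 and Slc40a1 had the order overexpression, scrambled control, empty control, knockdown. In Slc11a2 the last step was without overlap, and in Fth1, Ftl1 and Slc40a1 every step overlapped. Ncoa4 had the order knockdown, empty control, overexpression, scrambled control, with overlap only in the first step. Tfrc had the order overexpression, empty control, knockdown, scrambled control, with the last step free of overlap. Slc11a1, Aco1 and Ireb2 overlapped at each step.

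Whether the 2 effects differed was tested directly over the 12 libraries, as the overexpression effect less the knockdown effect. This called 1 of the 9 members, Ncoa4, beside 4.84% of all genes (1.9% higher and 2.94% lower, or 213 and 330 genes, turning to 339 and 252 with median-of-ratios scaling), with a difference of -0.43 (limma, adjusted p = 0.0435). That call was lost with median-of-ratios scaling (-0.34, adjusted p = 0.0591) and when single libraries were left out, except scrambled control 3 (-0.48, adjusted p = 0.0437), with the highest adjusted p, 0.119, without knockdown library 3. For Slc11a2 the difference of 0.60 had an adjusted p of 0.0509, which fell to 0.0444 without empty control 2 and 0.0323 without overexpression library 3. With the block 7 members were called, beside 41.5% of all genes (1447 higher and 3211 lower, and 2094 and 2017 with median-of-ratios scaling added): Ncoa4 lower, and Fth1 (0.57, adjusted p = 0.00372), Ftl1 (0.53, 0.00314), Slc11a2 (0.60, 0.00333), Slc11a1 (0.26, 0.0107), Slc40a1 (0.88, 0.00134) and Ireb2 (0.22, 0.0476) higher. Tfrc (-0.26, adjusted p = 0.0542) and Aco1 (-0.12, adjusted p = 0.188) were not called with the block.

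Other genes of iron handling were taken from a list of 90 sorted by role, of which 69 were tested in knockdown. There 12 were called higher (17.4% of the list, and 17.4% of all genes) and 8 lower (11.6%, and 8.86% of all genes), with a median log2 fold change of 0.08 beside 0.07 for all genes. With median-of-ratios scaling 8 were higher and 11 lower, beside 1251 and 1454 of all genes, so the direction of the excess turned with the scaling in the list and in all genes alike. With the block 24 were higher and 12 lower, beside 30.6% and 14.7% of all genes. Without the libraries numbered 2 only 2 were called, beside 449 of 11232 genes. The wider iron list as a whole stood near the background.

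Haem handling held 4 of the 8 lower calls: of its 9 tested genes 4 were lower (44.4%) and 1 was higher (11.1%). Of all genes 8.86% were lower and 17.4% higher. The median log2 fold change of the 9 was -0.31. Slc46a1, a haem and folate transporter, fell by 29.9% from 8.34 ± 0.479 to 5.85 ± 0.260 FPKM (log2 fold change -0.45, adjusted p = 0.00521). The genes named as biliverdin reductases were lower too: Blvra at 88.9 ± 2.30 against 70.9 ± 5.12 FPKM (-0.32, adjusted p = 0.0172) and Blvrb at 110 ± 11.0 against 81.4 ± 7.40 FPKM (-0.43, adjusted p = 0.0191). The remaining gene called lower was Hmox2, the constitutive haem oxygenase, named here after its value was seen. Those 4 genes were not called in overexpression, where 0% of all genes were called, and 0.116% with the block.

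Hp, which encodes haptoglobin, the plasma protein that captures free haemoglobin, made by far the largest change of the iron list. It stood at 4.99, 7.02 and 9.23 FPKM in the scrambled controls and at 74.4, 66.0 and 80.0 FPKM in knockdown. The mean rose from 7.08 ± 2.12 to 73.4 ± 7.04 FPKM (SD, n = 3 each), a fold of 10.4 by FPKM and a log2 fold change of 3.23 (limma, adjusted p = 0.000713). In overexpression it stood at 1.87, 2.61 and 2.23 FPKM against 3.10, 7.43 and 8.26 FPKM in the empty controls, a log2 fold change of -1.09 that did not pass (adjusted p = 1; 0.148 with the block). The difference between the effects was called (-4.32, adjusted p = 0.00102). Hepatocyte markers summed to at most 0.296 FPKM in any library.

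Haem synthesis had 1 gene lower and 1 higher among 8 (12.5% each, beside 8.86% and 17.4% of all genes). Alas1, the rate-limiting enzyme of haem synthesis outside red cells, stood at 36.1, 35.4 and 35.1 FPKM in the scrambled controls and at 24.6, 24.6 and 27.0 FPKM in knockdown. The log2 fold change was -0.47 (limma, adjusted p = 0.00399), and the difference from overexpression, 0.50, was called as well (adjusted p = 0.0178). Cpox, a later enzyme of the pathway, rose from 5.99 ± 0.744 to 7.88 ± 0.592 FPKM (0.35, adjusted p = 0.0345), a call lost with median-of-ratios scaling (0.28, adjusted p = 0.0573). The empty controls had 29.0 ± 0.404 FPKM of Alas1, between knockdown and the scrambled controls. They had 8.65 ± 1.02 FPKM of Cpox, above the mean of knockdown.

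Among 22 genes of mitochondrial iron and iron-sulphur assembly 5 were called higher (22.7%) and 1 lower (4.55%). Among 9 genes of cytosolic iron-sulphur assembly 2 were higher (22.2%) and 1 lower (11.1%). Of all genes 17.4% were higher and 8.86% lower, so both groups stood near the background. Cisd3, a mitochondrial iron-sulphur protein, rose from 34.1 ± 1.37 to 48.1 ± 2.11 FPKM (0.48, adjusted p = 0.00399). Nfs1, the cysteine desulphurase, and Abcb10 rose by 0.25 (adjusted p = 0.0219) and 0.34 (adjusted p = 0.0344), and both calls were lost with median-of-ratios scaling. Mitochondrial calls also included Bola3 (0.21, adjusted p = 0.045) and Iscu (-0.20, adjusted p = 0.0425), both named after their values were seen, and Bola3 lost its call with median-of-ratios scaling (0.13, adjusted p = 0.184). In the cytosolic group Fam96a rose by 0.44 (adjusted p = 0.00988) and Nubp1 by 0.33 (adjusted p = 0.0234), and Narfl fell by 0.25 (adjusted p = 0.0207). The empty controls had 87.8 ± 17.9 FPKM of Fam96a, above the knockdown mean of 86.1 FPKM. They lay between scrambled controls and knockdown by mean for Cisd3 (44.1 FPKM), Abcb10 (5.66 FPKM), Nubp1 (19.4 FPKM), Narfl (11.2 FPKM) and Iscu (39.4 FPKM). For Nfs1 (34.5 FPKM) they stood near the scrambled mean of 34.4 FPKM, and for Bola3 (44.4 FPKM) below that of 46.2 FPKM.

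Uptake and reduction genes outside the members gave 0 calls among 8 tested, beside 26.3% of all genes called. The smallest p there belonged to Mcoln1, a lysosomal cation channel that passes iron, at 31.0 ± 1.76 against 26.8 ± 1.16 FPKM (-0.21, adjusted p = 0.0646; 0.0185 with median-of-ratios scaling, and 0.0165 with the block). Trf, transferrin itself, was at 125 ± 10.7 FPKM in scrambled controls and 143 ± 7.07 FPKM in knockdown (0.19, adjusted p = 0.127, and 0.0246 with the block). Its difference between the effects, -0.35, did not pass either (adjusted p = 0.132, and 0.00382 with the block). With the block 2 of these 8 genes were called higher and 1 lower in knockdown, beside 30.6% and 14.7% of all genes. Among chaperones and turnover genes 1 of 5 was called (20%, beside 26.3% of all genes). It was Herc2, a ubiquitin ligase that acts on Ncoa4, which fell from 7.20 ± 0.330 to 5.72 ± 0.0214 FPKM (-0.29, adjusted p = 0.0146). Ncoa4 RNA was higher in knockdown, and a link between the 2 changes was not tested.

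Of the export genes Cp, ceruloplasmin, a ferroxidase that works with ferroportin, was at 0.637 ± 0.167 FPKM in scrambled controls and 1.36 ± 0.304 FPKM in knockdown (0.53, adjusted p = 0.0161). It reached the filter of 1 FPKM only through the knockdown libraries and was not tested in overexpression, so its place among the 12 higher calls follows in part from the filter. Of the sensing genes Epas1, whose mRNA is known to carry an IRE, rose from 5.87 ± 0.907 to 8.86 ± 0.651 FPKM (0.53, adjusted p = 0.0131). Cul1, a scaffold of the ligase that degrades IRP2, rose from 34.2 ± 2.81 to 44.6 ± 3.63 FPKM (0.37, adjusted p = 0.0224). The empty controls had 6.82 ± 0.469 FPKM of Epas1 and 38.5 ± 5.88 FPKM of Cul1, both between scrambled controls and knockdown by mean. In overexpression 0 of the 68 tested genes of the list were called, beside 0% of all genes. With the block the list again had 0 calls, beside 0.116% of all genes.

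**Figure D4:**
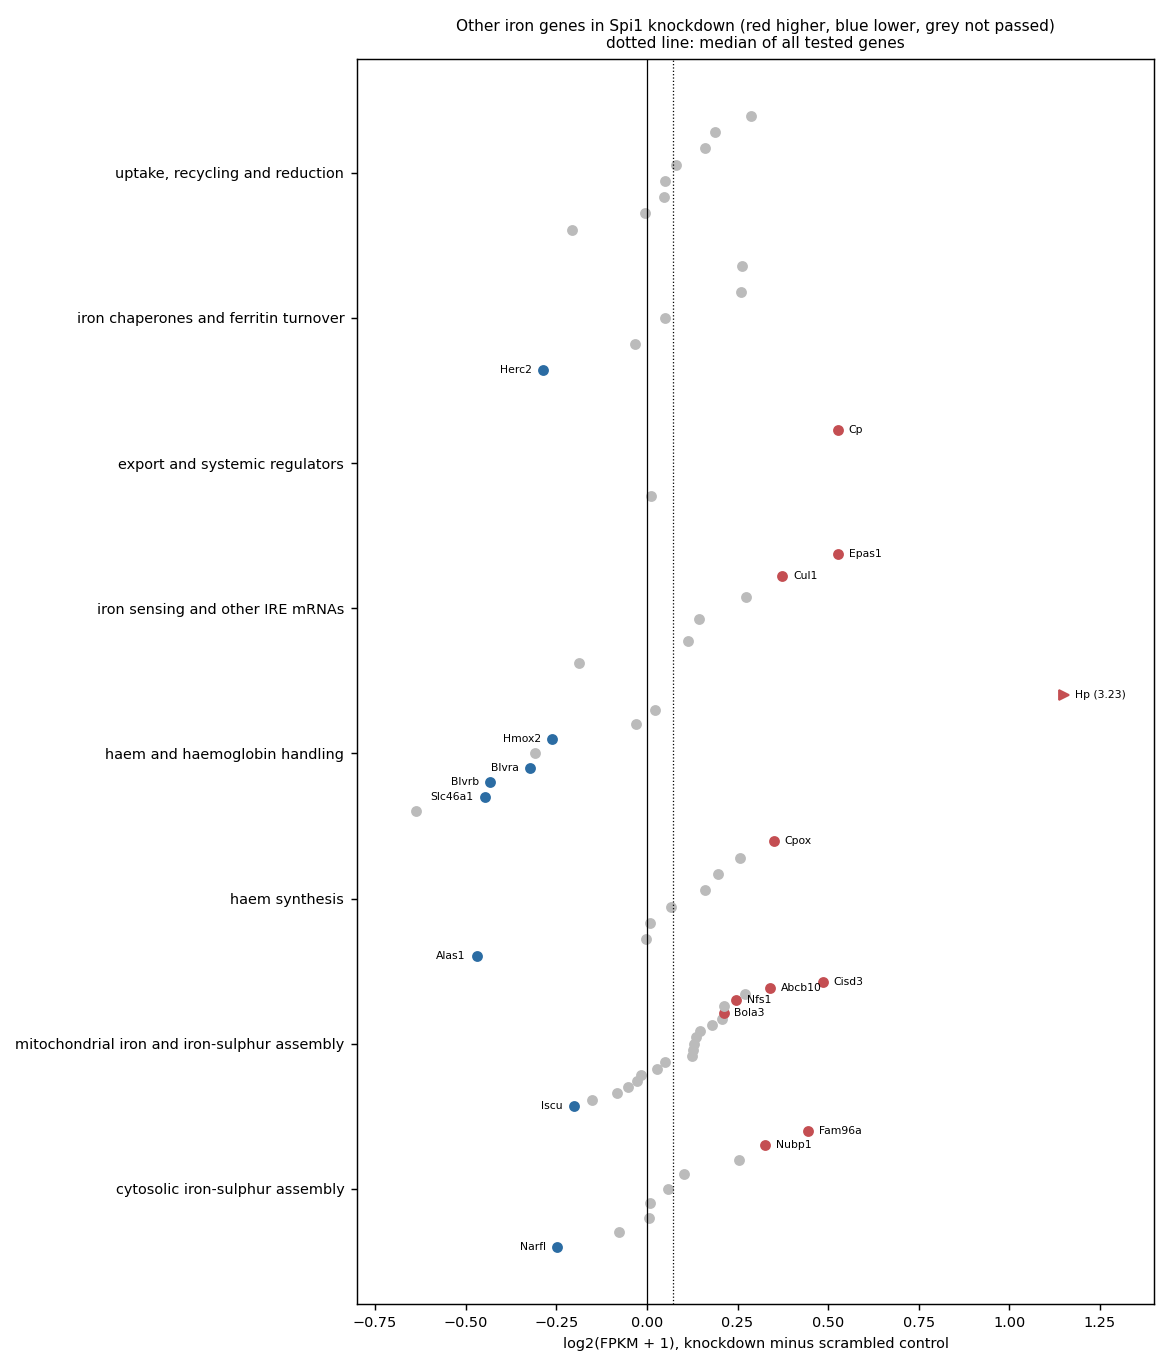
Log2 fold change in knockdown (horizontal axis) of 68 of the 69 tested iron genes outside the 9 members, by role; each point is a gene, red and named where called higher, blue and named where called lower, grey where not called, and the dotted line is the median of all tested genes (0.07). Haem handling holds 4 of the 8 lower calls, and Hp (3.23) is drawn as an arrow at the edge of the axis.

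The genes whose level followed each member most closely over the 12 libraries were picked as the highest Pearson correlations among tested genes. For Slc40a1 they were led by Rgs1 (0.98), for Ftl1 by Ddit3 (0.98), for Fth1 by Htatip2 (0.97) and for Slc11a2 by Zfat (0.96). Tfrc was followed by Nop16 (0.98), Ncoa4 by Ckap4 (0.97), Slc11a1 by M6pr (0.96), Aco1 by Enoph1 (0.96) and Ireb2 by LOC100503496 (0.99). With so many genes set against 12 libraries in 4 groups, correlations of this size occur for every member.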

How the data were processed

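RNA of 12 libraries (polyA, TruSeq v2, read on a HiSeq as single reads, per the labels' protocols) was used as deposited, in 2 tables of FPKM made by the authors. Tools in the submitters' processing notes, with no role given, are STAR 2.5.2a, featureCounts, DESeq2 1.14, CASAVA 1.8.2 and bcl2fastq, and the build is mm10. The sources used here give neither the annotation nor the strand setting nor the unit. FPKM was read from the values: whole reads were recovered for 17842 of 17842 genes above 0, and each library is scaled by its own total, so a change in a very abundant gene shifts all others a little. No step between the 2 tables removes a shift between the experiments.

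limma 3.58.1 (R 4.3.3) was fitted on log2(FPKM + 1) within each experiment over all genes whose mean reached 1 FPKM, with Benjamini-Hochberg adjustment at 0.05. Fold changes on that scale understate changes of low genes. The difference between effects was fitted over all 12 libraries. Because the files hold FPKM and no counts, the planned count test was not run. Same-numbered libraries deviated together across genes (correlations 0.397, 0.540 and 0.345 in knockdown, 0.791, 0.845 and 0.513 in overexpression, limit 0.1), so the number was taken as a pairing from the data. Blocked values stand where they change a call of a member, and for some of the other iron genes.

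All 9 members are named. Of 90 other iron genes (all in the tables, some under RefSeq synonyms) up to 4 called genes for each role with the smallest p in any comparison are named, or 2 where none was called; 1 gene is not reported here. The members and lists were chosen with earlier results of these data known. Alternatives covered the pseudocount, the filter, median-of-ratios scaling, trend and robust variance, voom on recovered reads, the block and single libraries left out. Single libraries were left out of the fits without the block. The fits were also run on simulated counts without a shared effect of the library number. Recovery was required only for changes larger than those of the members, so that run does not bear on the calls above.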

Additional observations from a re-analysis of the deposited data

Results flagged for a closer look

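Each value below is overexpression minus knockdown on the log2 scale. That difference was fitted for the 9 members and 68 other iron genes. It called 1 member and 2 of the other iron genes (2.94%), beside 4.84% of all genes. The 10 genes below were picked from the members and the named iron genes. They passed that test or went opposite ways in every same-numbered pair of the 2 experiments. For 3 of them the difference passed its own test over the 12 libraries (limma, adjusted p below 0.05): Ncoa4 at -0.43 (0.0435), Hp at -4.32 (0.00102) and Alas1 at 0.50 (0.0178).

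The other 7 went one way in all 3 same-numbered pairs of knockdown and the opposite way in all 3 of overexpression, but the difference did not pass without the library number as a block. Among the members these were Fth1 at 0.57 (adjusted p = 0.344, and 0.00372 with the block), Ftl1 at 0.53 (0.387 and 0.00314), Slc11a2 at 0.60 (0.0509 and 0.00333) and Slc40a1 at 0.88 (0.233 and 0.00134). Among the other iron genes they were Trf at -0.35 (0.132 and 0.00382), Blvrb at 0.59 (0.183 and 0.00106) and Cisd3 at -0.62 (0.148 and 0.000986). The block called 41.5% of all genes in this difference. It rests on the same within-pair differences by which these 7 were picked, so its adjusted p is not separate support. How many of all genes went opposite ways in every pair was not counted. Singly, all 3 pairs were higher in 47.3% and lower in 24.6% of all genes in knockdown, and in 14% and 23.8% in overexpression.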

How the results depend on the processing

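Each experiment has 3 libraries a group, and most calls sat near the threshold. With the replicate block, knockdown called 5081 genes, 8 members and 36 other iron genes, and 4704, 8 and 33 with median-of-ratios scaling added. Fitted over all 12 libraries with 1 shared spread it called 1605, 2 and 11, and without the libraries numbered 2, chosen after seeing the data, 449, 0 and 2. Overexpression called 13 genes with the block, 12 with scaling added and 5 with the block but without the libraries numbered 2, and 0 members and 0 other iron genes under every alternative run. The difference called 4658 genes, 7 members and 32 other iron genes with the block, 4111, 7 and 29 with scaling added, and 80, 0 and 1 without the libraries numbered 2. Its members numbered 2 with a mean of at least 5 FPKM, with trend and robust variance and with voom, and 0 with median-of-ratios scaling, and its other iron genes 5 with no filter, 4 with a mean of at least 5 FPKM and 5 with median-of-ratios scaling. The cause of these shifts was not tested.

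Without single libraries knockdown called 1458 to 2206 genes, 2 to 4 members and 6 to 16 other iron genes, overexpression 0, and the difference 109 to 575 genes, 0 to 1 members and 1 to 3 other iron genes. These fits had no block, and the same-numbered partner of the library left out stayed in. No member changed sign in knockdown when single libraries were left out. In overexpression the sign turned for Fth1 (-0.12 to 0.24), Ftl1 (-0.11 to 0.40), Tfrc (-0.25 to 0.37), Slc11a2 (-0.011 to 0.17), Slc11a1 (-0.10 to 0.14), Aco1 (-0.087 to 0.12) and Ireb2 (-0.081 to 0.11), and in the difference for Tfrc (-0.55 to 0.066). A turned sign can therefore reflect the library number that was left unmatched. Fth1, Ftl1 and Slc11a2 were higher in all 3 same-numbered pairs of overexpression, while the pairs of Tfrc, Slc11a1, Aco1 and Ireb2 went both ways. Members had 833 to 536227 reads in a library, and what share of the spread is counting error was not tested.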

Other observations

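Hmox1, the inducible haem oxygenase that frees iron from haem, falls outside the rule for named genes and was chosen after its values were seen. It stood at 908, 604 and 532 FPKM in the scrambled controls and at 525, 383 and 384 FPKM in knockdown, with no overlap, and the log2 fold change of -0.64 did not pass (limma, adjusted p = 0.0617; 0.00491 with the replicate block). In the other experiment the empty controls had 454, 766 and 495 FPKM and the libraries with the cDNA 561, 875 and 571 FPKM. The libraries numbered 2 were the highest of their groups there, as they were for Fth1, Ftl1 and Slc40a1. Its log2 fold change of 0.24 did not pass (adjusted p = 1; 0.148 with the block), and the difference between the effects, 0.87, passed only with the block (adjusted p = 0.2 without, 0.000915 with).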
